A study of Mus musculus with 9 samples.

Results

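Exonic non-methylated islands without a transcription start site (TSS) were intervals of non-methylated DNA that held no 5′ end of any annotated transcript and shared at least 1 bp with an annotated exon. There were 675 of them among 13489 non-methylated islands (NMIs) on chromosomes 1 to 19 and X (5.00%), and they made up 18.7% of the 3602 NMIs without a TSS. The other NMIs without a TSS lay in introns (1216) or between genes (1711). Members were chosen by position alone, so that their sequence and width were not used to choose them, although a wider interval meets an exon more often.

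In mammalian DNA most CpG dinucleotides carry methylated cytosine, and the methylated base is lost by mutation over time, which leaves most of the genome poor in CpG. CpG islands, most of them at promoters, escape methylation, keep their CpG and are bound by proteins with a CXXC zinc finger, a fold that recognises CpG without methylation. Coding exons are in general richer in CpG than introns and, in the bodies of transcribed genes, are usually methylated along with the introns around them.

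The samples came from C127 cells, a single line of mouse mammary epithelium, and were 1 library of BioCAP with 1 input, 3 libraries of ATAC with 1 input and 3 libraries of nascent RNA marked by 4-thiouridine. The study used the line to place non-methylated DNA, open chromatin and nascent RNA, and the report covers the NMI list of the BioCAP library alone. BioCAP retains sonicated DNA on a resin carrying the CXXC domain of human KDM2B, and the fractions released at the highest salt were sequenced. The labels name no treatment of the cells used for BioCAP, no markers of mammary cells could be checked in a list of positions, and what was found in 1 library of 1 line is not known to hold in mammary tissue.

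The list gave positions without a score, height or read count, so the depth was unknown and each NMI counted alike. A single library has no replicates, and no test was run on any comparison below. Shares are given with exact Clopper-Pearson 95% intervals and medians with exact order-statistic 95% intervals, which cover counting error only. Capture on the resin depends on how many unmethylated CpG a fragment holds, so CpG density was not independent of being listed as an NMI.

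Short stretches of members show how CpG sat in codons. Of 20 members of 300 bp or less that lay wholly in coding sequence, the 3 with the highest CpG density and the 1 with the lowest are shown, and wide members over 1000 bp from any TSS with enough coding sequence add 4 more. Each line holds the 10 codons with the most CpG, 30 bases in frame on the coding strand, from the reference genome (mm10/GRCm38), with CpG in capitals.
Ddn: cCGagCGagggtCGCGagtgCGaggcCGag
Gjd3: cagtCGcCGctCGtgggtCGtctctggctg
Slc17a7: cccccaggggCGcccccCGCGcCGcctcCG
Tmc5: cctggttactcagggtctCGgaaccacaca
Hist1h2be: ttCGagCGcatCGCGggCGaggCGtccCGc
Hist1h1d: acCGgCGcCGctgctgggaagCGcaaggCG
Hoxc9: CGcCGCGcCGactgCGgccCGggCGaCGgc
Sf3b5: gcCGagaaCGagagcaaagccCGCGtgCGg

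The stretch of Ddn, which encodes the podocyte and synaptic protein dendrin, lay at chr15:98805814-98805843 on the minus strand in the last of 2 exons and held 6 CpG. Its member of 247 bp had 22 CpG, or 8.91 CpG per 100 bp, and lay 1146 bp from the nearest TSS. Gjd3, a connexin gene, gave 4 CpG at chr11:98982939-98982968 on the minus strand, in a member of 146 bp that lay 47 bp from a TSS. Slc17a7, the vesicular glutamate transporter VGLUT1, gave 5 CpG at chr7:45174949-45174978 on the plus strand in the last of 12 exons. Tmc5, a transmembrane channel-like gene, held the least dense member of this kind, with 3 CpG in 119 bp (2.52 per 100 bp), and its stretch at chr7:118623127-118623156 on the plus strand held 1 CpG. The stretches of members of 300 bp or less thus ran from 6 CpG to 1.

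The stretches from wide members held 5 to 8 CpG. Each of these wide members held the 5′ end of a curated transcript in another annotation, RefSeq. Their distance of over 1000 bp from any TSS thus holds only for the annotation used here. Hoxc9, a homeobox gene of trunk patterning, reached 8 CpG in 30 bases at chr15:102982028-102982057 on the plus strand, and 5 of the 8 joined the last base of a codon to the first base of the next. Hist1h2be, a replication-dependent H2B histone gene, held 7 CpG at chr13:23585717-23585746 on the minus strand. Hist1h1d, a linker histone gene, held 5 at chr13:23555168-23555197 on the plus strand, and Sf3b5, which encodes a subunit of the spliceosomal SF3B complex, held 5 at chr10:13008788-13008817 on the plus strand. Histone genes have near-identical copies, and reads without a unique position were discarded before NMIs were called, so their intervals are uncertain.

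To describe which exons were involved, each member was assigned to 1 host transcript, with a protein-coding gene and its principal isoform taken first. Internal exons held 314 members (46.5%, 95% interval 42.7 to 50.4%), last exons 193 (28.6%, 25.2 to 32.2%) and first exons 96 (14.2%, 11.7 to 17.1%). Host transcripts of 1 exon held 53 members (7.85%), and 19 members spanned exons of more than 1 kind. The choice of host transcript mattered here, since with overlap alone deciding the transcript the internal share was 40.1%. Exons of 2 genes overlapped 27 members, and for these the host was set by the same order of preference.

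Coding sequence was the part most often touched. In 429 members (63.6%, 59.8 to 67.2%) the interval touched coding bases of the host transcript, in 46 it touched the 5′ untranslated region but no coding base, in 45 the 3′ untranslated region but no coding base, and in 155 (23.0%) only exons of a non-coding transcript. Coding bases were present in 270 of 314 members in internal exons (86.0%), 47 of 96 in first exons (49.0%), 86 of 193 in last exons (44.6%) and 11 of 53 in transcripts of 1 exon (20.8%). Of the coding members, 82 also held 3′ untranslated bases, and 68 also held 5′ untranslated bases. In 286 members (42.4%) all exonic bases of the host transcript were coding. With overlap alone deciding the transcript, 56.3% of members touched coding bases. In the 5′ untranslated group 33 of 46 members lay in first exons, and in the 3′ untranslated group 38 of 45 lay in last exons.

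**Figure D1:**
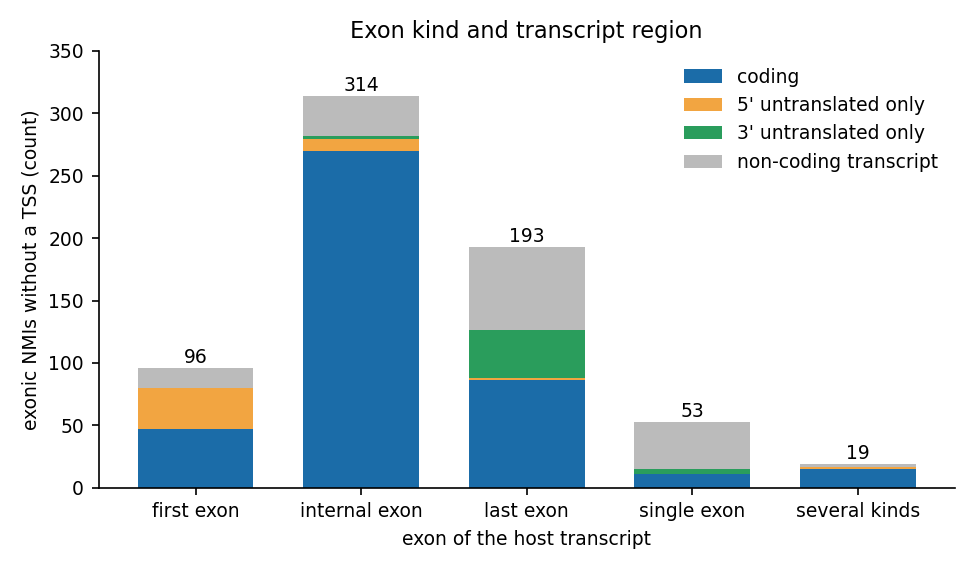
Number of exonic NMIs without a TSS (vertical axis, count) by the exon of the host transcript they overlapped, with colours for the transcript region. Internal exons held 314 members, of which 270 touched coding sequence, whereas 38 of 53 members in transcripts of 1 exon lay in non-coding transcripts.

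The host gene was protein-coding for 545 members (80.7%, 77.6 to 83.6%). A long intergenic non-coding RNA hosted 64, an antisense RNA 22, a transcript awaiting experimental evidence 16 and a processed transcript 15. The members fell in 651 genes, of which 629 held 1, 20 held 2 and 2 held 3. Grin1, the obligatory subunit of NMDA receptors, and Unc13a, a priming factor of synaptic vesicles, were the genes with 3. In Grin1 the members met exons 4, 17 and 20 of 20 with 4.96, 3.43 and 8.97 CpG per 100 bp. The member at exon 17 met 2 exons, and that at exon 4 held 29 coding bases and 213 bases of an intron of the host transcript. In Unc13a they lay in exons 9, 16 and 44 of 44 with 5.02, 8.10 and 8.03 CpG per 100 bp. In both genes all 3 members touched coding sequence, and Unc13a also had an NMI at a TSS whereas Grin1 had none in the list.

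The extent of overlap between members and exons varied. The median member had 67.6% of its bases in exons of any gene (95% interval 63.1 to 73.5%), 203 members (30.1%) lay wholly inside exons and 30 (4.44%) had under 10% of their bases there. For 284 members that met a single internal exon, the NMI covered the whole exon in 126 (44.4%, 38.5 to 50.4%) and only the donor side in 69. It covered only the acceptor side in 62 and lay inside the exon in 27. The internal exons were short, with a median length of 168 bp (156 to 176 bp), against a median member width of 312 bp there, while last exons had a median of 1320 bp and members in them 470 bp.

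The widest member was 3594 bp (chr11:69408529-69412122) and touched exon 2 of 23 of Kdm6b, a histone demethylase gene, with 3.3% of its bases in exons. Chd3, which encodes a nucleosome remodeler of the NuRD complex, held the next at 3207 bp (chr11:69366179-69369385), which lay 6 bp from a TSS of that gene. Bcor, a corepressor that forms a Polycomb complex with KDM2B, held members of 2769 bp (chrX:12133302-12136070) and 1940 bp (chrX:12078495-12080434), the first in the fourth exon of a non-coding transcript and the second in a first exon. Prr7, which encodes a transmembrane adaptor of synapses and lymphocytes, held a member of 2181 bp (chr13:55471155-55473335) with 8.94 CpG per 100 bp. The last of 2 exons of Pura, a gene for a nucleic acid-binding protein, met a member of 1950 bp, and the non-coding genes C130012C08Rik and Gm11290 held members of 2112 and 2016 bp. These widest members were not alike in composition, since the CpG density ran from 2.68 per 100 bp at Gm11290 to 10.6 per 100 bp in the first exon of Bcor.

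Distance to the host TSS was shortest for first exons, as their definition implies. A first exon starts at a TSS, so the distance of a member in it cannot exceed the exon length (median 397 bp). The median distance from a member to the nearest TSS of its host gene was 2057 bp (95% interval 1602 to 2693 bp). It was 69 bp for first exons, 565 bp for transcripts of 1 exon, 3539 bp for internal exons and 4814 bp for last exons. Measured to the 5′ end of the host transcript instead, the medians were 5791 bp over all members, 13049 bp for internal exons and 9792 bp for last exons, the reverse of their order by the nearest TSS. A total of 146 members (21.6%) lay over 10 kb from every TSS of their host.

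**Figure D2:**
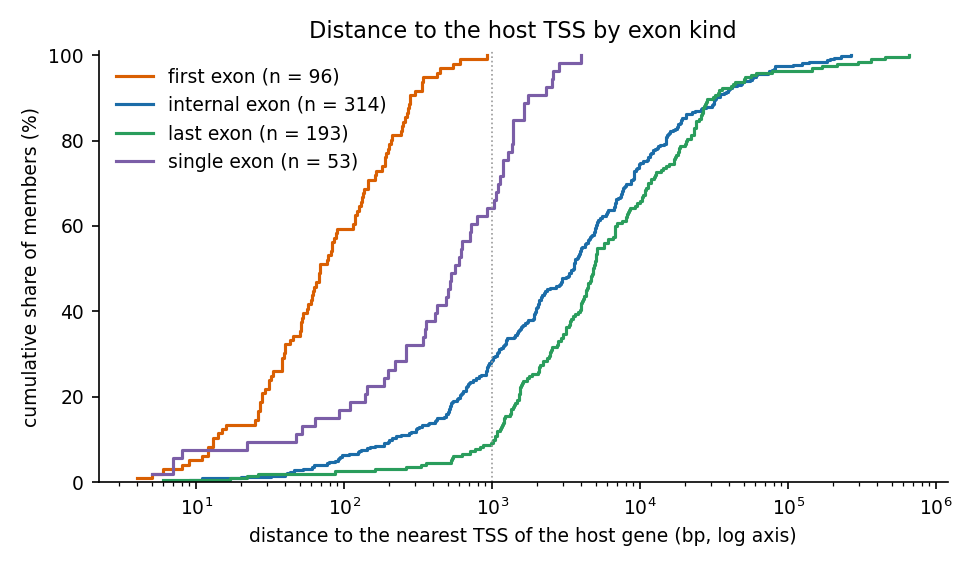
Cumulative share of members (%) against the distance to the nearest TSS of the host gene (bp, log axis), with 1 line per kind of exon and a dotted line at 1000 bp. First exons rise earliest, with a median of 69 bp, and internal and last exons follow with medians of 3539 and 4814 bp.

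Members split between the surroundings of promoters and the bodies of genes. Within 250 bp of any TSS lay 156 members (23.1%), which included 82 of 96 in first exons (85.4%), 37 of 314 in internal exons (11.8%) and 9 of 193 in last exons (4.66%). A further 115 lay at 250 to 1000 bp, 226 at 1 to 5 kb, 86 at 5 to 10 kb and 92 (13.6%, 11.1 to 16.5%) beyond 10 kb. Within 1 kb of a TSS the total was 271 (40.1%, 36.4 to 44.0%), beside 77.2% of all NMIs, a share that also counts the NMIs that hold a TSS and so cannot be compared directly. Beyond 1 kb from any TSS lay 404 of 675 members, 1057 of 1216 intronic NMIs and 1608 of 1711 intergenic NMIs, so members lay near a TSS more often than either. This order follows in part from the grouping. First exons and transcripts of 1 exon begin at a TSS, while intronic and intergenic NMIs meet no exon. The nearest TSS belonged to the host gene for 504 members (74.7%), and 503 (74.5%) lay downstream of their nearest TSS.

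The 5 members nearest to a TSS lay within a few bases of it. An NMI of 1391 bp at a first exon of Bdnf, the brain-derived neurotrophic factor gene (chr2:109677036-109678426), lay 4 bp from a TSS. Those of 4933424N20Rik and Apol8, an apolipoprotein L gene, lay 5 bp away, and those of BB014433 and Chd3 6 bp away. In the internal exons a member of Gata3, which encodes a luminal transcription factor in mammary gland, also lay 9 bp from a TSS of its own gene (chr2:9873681-9875346, 1666 bp, exon 3 of 6).

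At the other end, members lay deep inside long genes. The farthest from any TSS was 152 bp wide in exon 16 of 38 of Pcsk5, a proprotein convertase gene (chr19:17572580-17572731), 120032 bp from the nearest TSS and 264886 bp from the nearest of its own. Dnah5, which encodes a dynein heavy chain of motile cilia, followed at 108458 bp with a member that covered coding bases of exon 34 of 79 along all of its 164 bp. Mgmt, a DNA repair methyltransferase gene, and Plcb1, a phospholipase C gene, held members 81542 and 80980 bp from a TSS. Nkain3 and Stk32b, which encode a membrane protein and a kinase, held members at 80349 and 74537 bp. Cd44, the hyaluronan receptor, held 1 at 67295 bp in exon 16 of 19, and Gria1, a subunit of AMPA receptors, 1 at 60328 bp in exon 9 of 16. All 8 touched coding sequence, 7 of them in internal exons and the member of Nkain3 in the last exon, and their densities ran from 2.63 to 4.57 CpG per 100 bp. Some only just did so, since that of Nkain3 held 7 coding and 245 untranslated bases. In Mgmt 28 of 197 bp were coding, and in Pcsk5 38 of 152 bp. The member of Pcsk5 held 4 CpG in all, so that such calls rest on few sites.

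Over 1000 bp from any TSS, the widest members in internal exons after Kdm6b and Bcor were those of Hoxc9 (1427 bp, exon 2 of 3) and Nup160, a nuclear pore gene (1363 bp, 2 exons from exon 2 of 37). In last exons after Gm11290 and Pura they were those of Hist1h2be (1925 bp) and Btd, the biotinidase gene (1921 bp), the latter with 2.3% of its bases in exons and 2.03 CpG per 100 bp. In transcripts of 1 exon after C130012C08Rik they were those of Foxc1, a forkhead gene (1509 bp, 3979 bp from its TSS in the 3′ untranslated region), Hist1h1d (1459 bp) and Sf3b5 (975 bp). No first exon member lay over 1000 bp from a TSS.

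Some members held a 5′ end in another annotation. A RefSeq transcript started inside 69 members (10.2%, 8.04 to 12.8%), of which 34 (5.04%) held the start of a curated transcript and 31 only that of a predicted model. The members of Hist1h2be, Hist1h1d, Sf3b5 and Hoxc9 were among the 34, and all were members because GENCODE places no 5′ end inside them. Among the 8 widest members, those of Kdm6b, Chd3, Gm11290, Pura and the first exon of Bcor held a RefSeq start. Those of Prr7, C130012C08Rik and the internal exon of Bcor did not. Without the 69, 606 members remained, 10.4% of them in first exons, and the median width fell from 408 to 375 bp.

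The host gene also had an NMI at a TSS for 226 members (33.5%, 29.9 to 37.2%). Among the 545 members in protein-coding hosts it was 200 (36.7%, 32.6 to 40.9%), beside 47.9% of all protein-coding genes with an NMI at a TSS. The share was 16.7% for first exons, 37.6% for internal exons and 38.9% for last exons. Where the host had such an NMI, the gap between it and the member had a median of 10952 bp (8808 to 15006 bp) and was 478 bp at least. The other hosts had no NMI at a TSS in this list, which is not a measurement of methylation at their promoters. Malat1, a nuclear non-coding RNA named after its values were seen, held members of 165 and 368 bp in a transcript of 1 exon, and its gene had an NMI at a TSS.

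CpG density was next compared inside and around each member. The median member held 4.13 CpG per 100 bp (95% interval 3.96 to 4.31), and first exons had a median of 5.29, last exons 4.37, transcripts of 1 exon 3.94 and internal exons 3.77. In number of sites the median was 17 CpG per member, with 12 in internal exons, 28.5 in first exons and 46 in members that spanned exons of more than 1 kind. The 500 bp on either side had a median of 1.60 CpG per 100 bp, and 654 of 675 members (96.9%, 95.3 to 98.1%) were denser than their flanks. The median difference was 2.49 CpG per 100 bp (2.32 to 2.69). Capture favours dense CpG, so this difference describes what was listed and was not tested against other exons.

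**Figure D3:**
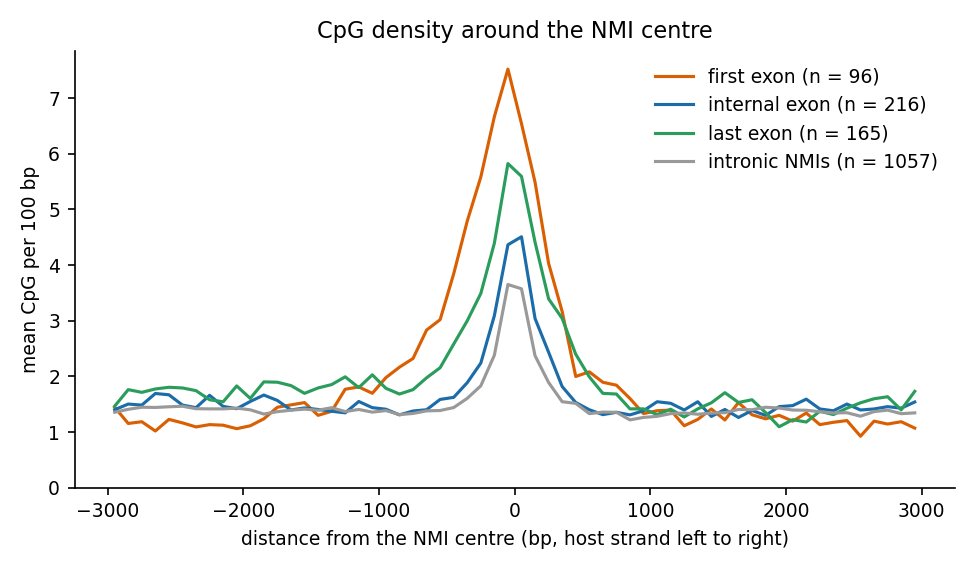
Mean CpG per 100 bp (vertical axis) in 100 bp steps by distance from the NMI centre (bp). Members in internal (n = 216) and last exons (n = 165) and intronic NMIs (n = 1057) are those over 1000 bp from any TSS, all 96 members in first exons are shown, and members are turned to the strand of their host while intronic NMIs are not. All 4 lines peak at the centre, from 7.52 CpG per 100 bp for first exons to 3.65 for intronic NMIs.

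Of the 5 densest members, 4 lay within 1000 bp of a TSS. Gm42555, a long non-coding RNA, held 16 CpG in 115 bp, or 13.9 CpG per 100 bp. Zbtb10, a zinc-finger gene, reached 13.5 per 100 bp over 1029 bp in its first exon (chr3:9250881-9251909), 279 bp from a TSS. Lrrc32, which encodes a carrier of latent TGF-beta, reached 13.4 per 100 bp and Ak5, an adenylate kinase gene, 12.4, both in first exons within 146 bp of a TSS. The fifth was in Ano8, an anoctamin gene, with 13.2 per 100 bp over 973 bp that met the last of 17 exons and lay wholly in exons of Ano8 and its neighbour Dda1, 5619 bp from the nearest TSS (chr8:71476030-71477002).

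The least dense members held very few CpG. The member of Pilra, which encodes an inhibitory receptor of myeloid cells, held 0 CpG in 139 bp (chr5:137823727-137823865), although its flanks of 500 bp held 1.00 CpG per 100 bp. Those of Styx, a pseudophosphatase gene, and Map2, a neuronal microtubule-associated protein gene, held 1 CpG each (0.79 and 0.88 CpG per 100 bp). The member of Itga10, an integrin gene, held 2 CpG in 185 bp, and that of the pseudogene Cyp2d32-ps 4 in 352 bp. An interval without CpG holds no site for the CXXC domain, and no read count was at hand by which to judge these calls.

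Exonic bases were denser than the other bases of the same NMI. For 381 members with at least 50 bp of each, the median was 5.26 CpG per 100 bp (4.87 to 5.56) in exons and 3.28 (3.13 to 3.55) in the rest. The exonic part was denser in 295 (77.4%, 72.9 to 81.5%) and less dense in 85, with a median difference of 2.16 CpG per 100 bp (1.86 to 2.44). It was denser in 163 of 207 members in internal exons (78.7%), 66 of 85 in last exons (77.6%) and 48 of 64 in first exons. Over 1000 bp from any TSS it was denser in 182 of 232 (78.4%). The difference was not tested against exons and introns outside NMIs.

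Single members gave differences in both directions. In Plcb1 the exonic part had 7.35 CpG per 100 bp and the rest 1.87, and in Stk32b 5.56 and 2.39. Nup160 had 10.2 in the exons it met and 3.17 in the rest, and Zfp771, a zinc-finger gene, had 13.6 and 3.16. The order was turned in Kdm6b, with 2.54 in exons and 5.67 elsewhere, and in the internal exon member of Bcor, with 4.95 and 6.43. In these last members exons took up only 3.3% and 19.7% of the bases.

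**Figure D4:**
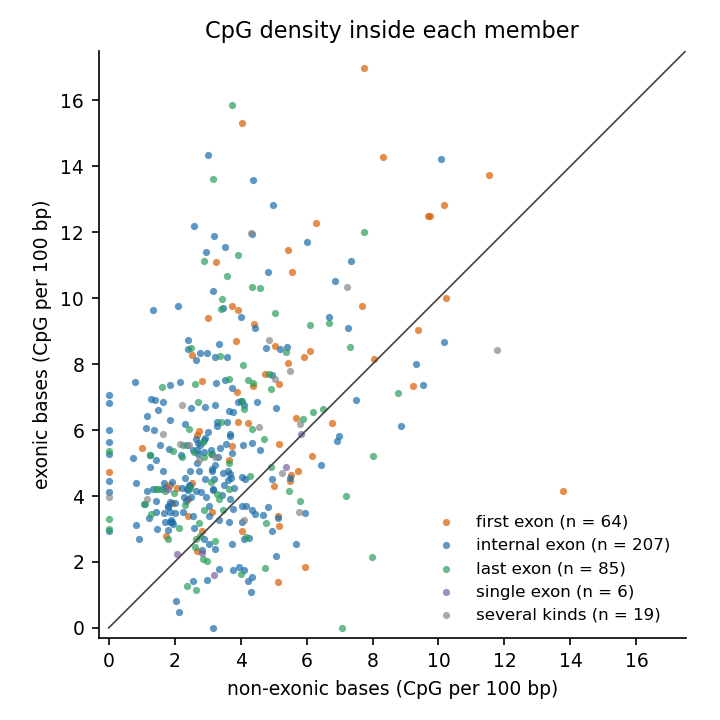
CpG per 100 bp in exonic bases (vertical axis) against non-exonic bases (horizontal axis) of the same member, for 381 members with at least 50 bp of each. Colours mark the kind of exon, the line marks equal density, and 295 points lie above it.

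The NMI also picked out the CpG-dense part of the exon it lay in. For 285 members with at least 100 bp of the exon inside and 100 bp outside, the part inside had a median of 4.43 CpG per 100 bp (4.17 to 5.00) and the part outside 1.91 (1.73 to 2.09). The inside was denser in 247 (86.7%, 82.2 to 90.4%). Both parts belong to 1 exon, so the comparison does not set exon against intron, but capture depends on CpG, so the direction was not independent of the listing.

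Among the internal exons of a transcript, the one with the member was often dense. For 247 members in transcripts with at least 3 internal exons of 50 bp or more, that exon had a median of 4.42 CpG per 100 bp (4.00 to 4.69) and the other internal exons of the same transcripts 2.90 (2.75 to 3.06). It exceeded the median of the others in 197 (79.8%, 74.2 to 84.6%) and was the densest of all in 75 (30.4%, 24.7 to 36.5%). The mean of 1 over the number of internal exons was 11.9%. Capture depends on CpG, so neither count was independent of the listing, and the 11.9% is no expectation for listed exons. Exon 33 of 36 of Sptbn4, a beta-spectrin gene of axons, had 14.3 CpG per 100 bp against a median of 4.31 in its other internal exons. Exon 12 of 20 of Srcin1, an inhibitor of SRC kinase, had 11.9 against 5.34. Both genes were named after their values were seen. In Dnah5 the exon with the member ranked only 31 of 77, yet its 2.67 CpG per 100 bp exceeded the median of 2.16 in the others. In Pcsk5 it ranked 23 of 35 and lay below the others, with 1.55 against 2.24.

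Coding CpG was then sorted by its place in the codon, since a CpG over the first or middle bases is tied to the amino acid while one that ends or bridges codons is less so. In 415 host transcripts, coding sequence inside members held 6340 CpG in 87979 bp (7.21 per 100 bp) and coding sequence of the same transcripts outside them 31905 in 880044 bp (3.63 per 100 bp). CpG at bases 1 and 2 of a codon made up 29.4% inside (95% interval 28.3 to 30.5%) and 35.1% outside (34.6 to 35.6%). At bases 2 and 3 the shares were 30.5% (29.4 to 31.7%) and 24.5% (24.1 to 25.0%), and at base 3 and base 1 of the next codon 40.1% (38.9 to 41.3%) and 40.4% (39.9 to 40.9%). Per 100 bp of coding sequence, the density at bases 2 and 3 was 2.20 inside and 0.889 outside, at bases 3 and 1 it was 2.89 and 1.46, and at bases 1 and 2 it was 2.12 and 1.27. CpG was thus denser inside members at all 3 places, with the widest ratio at bases 2 and 3. Capture favours dense CpG, so the higher density inside members was not independent of the listing. CpG of 1 transcript are not independent, and the intervals do not cover differences between genes. The printed stretch of Slc17a7 held 4 of its 5 CpG at bases 2 and 3, and that of Ddn 4 of 6 at bases 3 and 1.

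**Figure D5:**
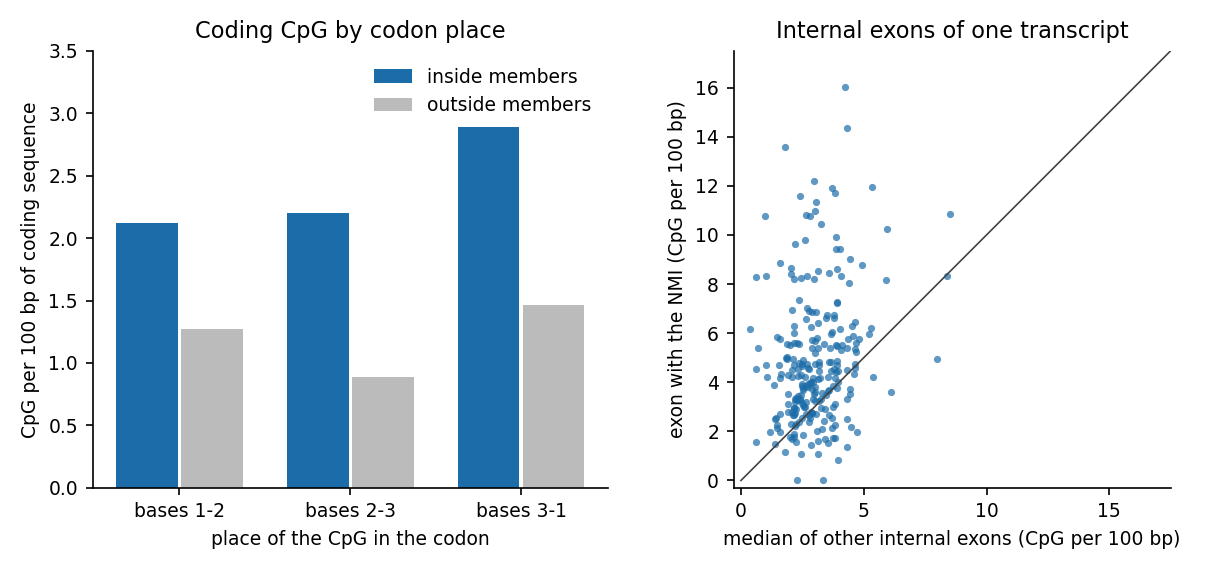
Left, CpG per 100 bp of coding sequence (vertical axis) by place in the codon, inside members and in the rest of the same 415 transcripts. Right, CpG per 100 bp of the internal exon with the member (vertical axis) against the median of the other internal exons (horizontal axis) for 247 members, of which 197 lie above the line of equal density.

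A predicted CpG island, taken as a window of 500 bp in which GC bases reached 55% and the observed/expected CpG ratio 0.65, overlapped 226 members (33.5%, 29.9 to 37.2%), beside 72.8% of all NMIs. The share was 56.3% in first exons, 41.5% in transcripts of 1 exon, 39.9% in last exons and 19.1% in internal exons. Within 1000 bp of a TSS it was 41.0% and beyond it 28.5%. With looser criteria of 200 bp, 50% and 0.6 it was 73.5%, so that the count of members at an island rests on the definition of an island.

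Set beside NMIs that met neither an exon nor a TSS, and over 1000 bp from any TSS in each case, exonic NMIs had a median width of 385 bp (342 to 427 bp), intronic ones 273 bp (260 to 287 bp) and intergenic ones 341.5 bp (326 to 359 bp). The median CpG density was 3.96 per 100 bp (3.74 to 4.13) in exonic, 3.18 (3.11 to 3.26) in intronic and 3.51 (3.46 to 3.60) in intergenic NMIs. The median GC content was 55.5%, 51.8% and 52.5% in the same order, and an island overlapped 28.5% (24.1 to 33.1%), 7.85% (6.30 to 9.64%) and 17.2% (15.4 to 19.2%). NMIs with a TSS had a median width of 1168 bp and 6.85 CpG per 100 bp. No test of these differences was run, and a wider interval meets an exon more often, so the width in particular is not independent of the grouping.

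Members occurred in few genes of any family. An exon of 532 of 21755 protein-coding genes (2.45%) met a member. Among Hox genes, which pattern the body axis, it was 6 of 39 (15.4%, 5.86 to 30.5%), namely Hoxa10, Hoxb4, Hoxb8, Hoxc9, Hoxc10 and Hoxc12, the last 2 named beyond the rule for named genes. Those of Hoxa10, Hoxb4 and Hoxc12 lay in first exons within 257 bp of a TSS, and those of Hoxb8, Hoxc9 and Hoxc10 lay over 1000 bp away. All 6 touched coding sequence, with densities from 3.51 CpG per 100 bp in Hoxc10 to 11.5 in Hoxc12. The Hox genes lie close together in clusters and are not independent of each other.

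Other homeobox genes had a member in 6 of 69 (8.70%). These were Zfhx3 (11.4 CpG per 100 bp over 1715 bp), Pitx3, Nkx2-2, Msx2 and, named beyond that rule, Dlx2 and Irx5. Forkhead genes had 2 of 44 (4.55%), Foxc1 and Foxn1, and Wnt ligands and Frizzled receptors 2 of 29 (6.90%), Wnt6 and Wnt10a. Wnt10a held members in exons 3 and 4 of 4, both coding. Single genes were met among Sox and Pou factors (Sox8, 1 of 34), T-box, Pax and sine oculis homeobox factors (Tbx5, 1 of 28), Klf, Sp and Egr factors (Klf1, 1 of 30) and mammary lineage factors (Gata3, 1 of 24). Zfp zinc-finger genes, which form large families, had 7 of 394 (1.78%, 0.717 to 3.63%), and the member of Zfp771 was its densest at 12.2 CpG per 100 bp. No list was tested against the share of 2.45% over all protein-coding genes.

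Genes of adhesion and of the cell surface were also counted, beside the 2.45% of all protein-coding genes. Integrin and laminin genes had 4 of 42 (9.52%, 2.66 to 22.6%), among them Itgb7 and Itga2b in coding internal exons and Itga10 in its 3′ untranslated region. Cadherins and protocadherins had 2 of 92 (Pcdh1 and Cdh22), collagens 2 of 44 (Col6a3 and Col9a1), keratins 2 of 49 (Krt77 and Krt88) and ephrins, semaphorins and plexins 3 of 51 (Efna3, Sema6b and Sema7a). The member of Cdh22 stood out in density, with 11.9 CpG per 100 bp in coding exon 7 of 12, 17148 bp from the nearest TSS.

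Replication-dependent histone genes had 4 of 67 (5.97%), namely Hist1h1d, Hist1h2be, Hist2h3c1 and Hist2h3c2. The pair of Hist2h3c genes are near-identical copies, and their members lay in 3′ untranslated sequence with 2.39 and 2.19 CpG per 100 bp. Polycomb genes had 2 of 32, Bcor and Pcgf2, a subunit of PRC1 with a coding member of 177 bp in the last of 10 exons. Potassium channel genes had 2 of 81 (2.47%, Kcnf1 among them), near the 2.45% of all protein-coding genes. Cytosolic ribosomal protein genes had 1 of 76 (1.32%, Rpl3). A fixed list of genes with their coding sequence in 1 large exon, such as those of insulin receptor substrates, had 1 of 42 (Foxc1). That list leaves out other such genes, Sf3b5 and Hist1h1d among them, and the member of Foxc1 lay in 3′ untranslated sequence. No member met an exon of the 19 genes of SET1 and MLL complexes, the 21 genes of CXXC proteins, TET enzymes and DNA methyltransferases, the 45 nuclear receptor genes or the 32 imprinted genes. For these lists the upper 95% limits of a count of 0 were 17.6%, 16.1%, 7.87% and 10.9%. Each limit lay above the 2.45% of all protein-coding genes that met a member, so the counts of 0 are no result about these lists. An NMI at a TSS was listed for 19, 18, 27 and 8 genes of these lists in the same order, beside 47.9% of all protein-coding genes.

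The members were spread over all chromosomes. They made up from 2.26% of the NMIs on chromosome 16 (9 of 399) to 7.61% on chromosome 15 (55 of 723), with 12 of 276 on X. Only 5 members had another NMI within 500 bp, and the median gap to the nearest other NMI was 14604 bp (11884 to 17569 bp). Bases in lower case in the reference, which mark repeats, took up a median of 4.89% of a member.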

How the data were processed

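BioCAP DNA of C127 cells was sequenced by the study. Alignment by the authors was with Bowtie2 against mm10. Reads that mapped to several places and duplicates (SAMtools) were left out, and MACS, named MACS2 in the submitters' processing notes, called the NMIs. Tool versions and the control for the call were not given in the sources used here. The deposited file held other values than counts: chromosome, start and end of 13491 NMIs, with no score, so the depth is unknown. The study may have used a larger set of NMIs, which would change shares of all NMIs and counts of genes that lack one. Islands under the calling threshold are absent, and the unique-read filter can remove gene copies.

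Starts, deposited from 0, are given from 1. Genes, exons and TSSs came from GENCODE release M21 and sequence from the RefSeq GRCm38.p6 assembly, which shares the coordinates of mm10. The host transcript was chosen by protein-coding gene, APPRIS principal isoform, CCDS tag, basic tag, overlap and length. A member touching any coding base was called coding. Islands were found with sliding windows (Python 3.11.15, numpy 2.4.6, pandas 2.3.3, scipy 1.17.1). Scripts were checked on simulated data. Members and gene lists were chosen with earlier results of these data known. Genes named were the 8 widest and 8 farthest members, the 4 widest of each exon kind over 1000 bp from a TSS, the 5 highest and 5 lowest in CpG, the 5 nearest to a TSS, hosts of 3 or more members and up to 4 per gene list, of which some are not reported here. Printed sequences were shortened to 10 codons, and none came from chromosome 18. Alternatives were other exon, width, distance, transcript, island and flank rules, and, chosen after seeing the data, RefSeq 5′ ends. The ATAC, RNA and input samples were not analysed here.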

Additional observations from a re-analysis of the deposited data

How the results depend on the processing

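A total of 15 results were recomputed under the alternatives, giving 80 values, of which 49 stayed within the main 95% interval (for the count of members, within 1.5 times), 31 moved and 0 reversed. Single replicates could not be left out of 1 library. No paired analysis was possible because only 1 BioCAP library was used and no result came from a test between groups.

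Against 675 members in the main definition, requiring 50% of the NMI in exons left 440, dropping NMIs at or below 572.5 bp left 230, and barring TSSs within 1000 bp left 404; fewer intervals pass by construction. The first set had a median width of 338 bp, 38.6% in internal and 34.3% in last exons. Wide NMIs had a median width of 879 bp, a host TSS at 1526 bp, 18.7% in first, 34.3% in internal and 33.9% in last exons, 5.23 CpG per 100 bp, 3.16 above flanks, and 66.1% at islands. Members with no TSS within 1000 bp had 0% in first, 53.5% in internal and 40.8% in last exons, 67.8% coding, 3.96 CpG per 100 bp and 28.5% at islands. Basic transcripts alone gave 67.4% coding. Overlap alone as the host rule gave 40.1% internal and 56.3% coding. The host TSS lay at 5791 bp by the host transcript and 8092 bp by the outermost 5′ end. Looser island criteria gave 73.5%. With RefSeq 5′ ends also barring NMIs, the median width was 375 bp, first exons held 10.4% and islands 28.2%. Where construction does not show it, the cause was not tested.

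Without a score or depth, weak and strong calls could not be weighed, and NMIs below the authors' threshold are not in the list. Intervals cover counting error only.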
